A study of Homo sapiens with 6 samples.

Results

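The heterogeneous nuclear ribonucleoproteins (hnRNPs) and the other splicing regulators outside the SR protein family were followed through a single comparison, HCT116 cells given auxin for 16 h against HCT116 cells given DMSO. The set was taken from a list of 42 gene symbols, matched through the deposited gene identifiers to GENCODE release 29, and all 42 were found among 58780 annotated genes. It holds 7 A/B-type hnRNPs, 4 members of the hnRNP F/H family, 6 other hnRNPs, 5 KH-domain proteins, 5 genes of the polypyrimidine tract-binding and hnRNP L families, 6 SR-related or RBM genes, TIA1 with TIAL1, and 7 regulators best known for tissue-specific splicing.

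HCT116 is a human colorectal carcinoma cell line. Of the 6 libraries, 3 came from cells given auxin and 3 from cells given DMSO, the solvent, and the labels number them as biological replicates 1 to 3 in each group without saying that the cultures were separate. The p-values therefore measure the spread between these libraries. Auxin is a plant hormone with which a degron-tagged protein can be removed from cells, but the labels name neither the tagged protein, nor the clone, nor a parental line given auxin, so effects of the hormone and of the degradation cannot be told apart. Total RNA was depleted of ribosomal RNA and made into stranded libraries. These are bulk measurements, in which less RNA per cell and fewer cells holding the RNA cannot be told apart.

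Alternative splicing is set by proteins that bind the pre-mRNA near splice sites. SR proteins mostly promote the use of nearby exons, while many hnRNPs, among them the polypyrimidine tract-binding proteins, mostly silence them, and RBFOX, MBNL, CELF and ESRP proteins act in either direction depending on where they bind. Many of these genes control their own level through an exon whose inclusion or skipping places a stop codon early and sends the RNA to nonsense-mediated decay (NMD), or through an intron held back in the nucleus. ESRP1 and ESRP2 are epithelial regulators, PTBP2 is the form of the polypyrimidine tract-binding protein that takes over from PTBP1 in neurons, and RBM10 and RBM5 are related regulators best known for promoting exon skipping.

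The libraries held between 234035407 and 625892507 expected counts, and replicate 1 was the deepest in both groups. All 42 genes passed the filter on low counts, with at least 894 counts in every library. Of 6 epithelial markers, 5 reached 1 TPM and VIL1 did not, and no leukocyte, endothelial or muscle marker reached 1 TPM. SYT1 and TUBB3 of 4 neuronal markers did, with a summed neuronal level of 69.75 to 108.8 TPM under DMSO and 57.21 to 76.15 TPM under auxin, and 1 of 6 fibroblast markers reached 1 TPM. TPM, a level corrected for transcript length and sequencing depth, is used below to compare genes, while tests of gene level used counts. Fold changes are auxin over DMSO on counts, with Benjamini-Hochberg adjusted p-values from edgeR's quasi-likelihood test over 19725 genes and a call at an adjusted p under 0.05.

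The set split in both directions. Of the 42 genes, 14 were lower, 10 were higher and 18 were not called, beside 26.9% lower, 25.4% higher and 52.3% called among all genes tested. The median log2 fold change was -0.05 in the set and 0.02 over all genes. The falls were larger than the rises. 4 genes, RBM10, PTBP1, ESRP2 and HNRNPUL2, fell more than 2-fold, against 13.3% of all genes tested, and no member rose 2-fold, against 6.55% of all genes. In normalized counts per mapped total (CPM), the groups were apart for 25 of the 42 genes, against 60.3% of all genes. Those apart with auxin higher were 12 of the 42, against 30% of all genes. The labels number the replicates alike in both groups, but the values set only replicate 1 apart as a pair. With the number as a block 19 members were lower and 17 higher, beside 34.4% and 35.5% of all genes, 69.9% in both directions. No call changed sign between the fits. A further 12 members were called only in the fit with the block, of these 2 fits. Without the block their edgeR adjusted p-values ran from 0.0539 (HNRNPH3) to 0.687 (HNRNPA3). They were called in 1 (HNRNPA3) to 10 (HNRNPD) of the 17 alternative settings, the block included. With limma on log2(TPM + 1), 12 members were lower and none was higher (2 at an unadjusted p under 0.05), and HNRNPL, QKI, RBM25, TIA1 and MBNL1 were no longer called lower (adjusted p of 0.103 to 0.173).

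**Figure D1:**
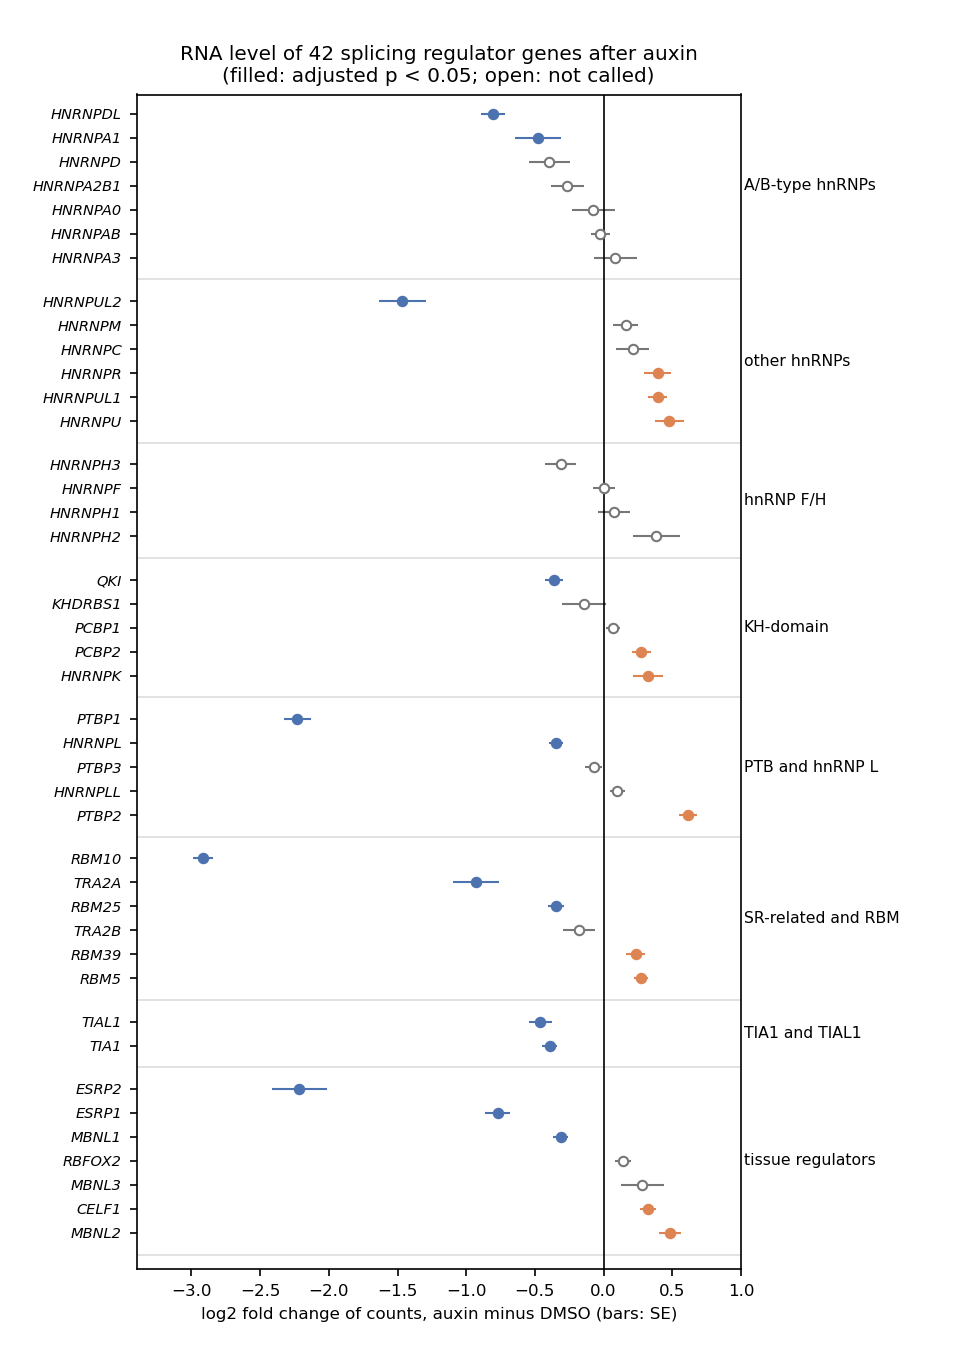
The log2 fold change of counts (auxin minus DMSO, x axis, bars are the SE) of each of the 42 genes, in 8 families, with filled points for adjusted p under 0.05 and open points for genes not called. RBM10, PTBP1, ESRP2 and HNRNPUL2 lie below -1, and the highest value is that of PTBP2, 0.62.

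Within the polypyrimidine tract-binding family, PTBP1 and PTBP2 moved in opposite directions. PTBP1 (chr19:797075-812327, plus strand, GRCh38), a broadly expressed repressor of exons, measured 249, 125 and 136 TPM in DMSO replicates 1 to 3 and 70.4, 40.0 and 45.8 TPM in the auxin replicates. Every auxin library was below every DMSO library, although replicate 1 was the highest of its group in both. Counts fell 4.69-fold, or fell by 2.23 ± 0.10 on the log2 scale (SE, adjusted p = 5.48e-06). PTBP2 (chr1:96721665-96823738, plus strand), its neuronal relative, measured 9.28, 6.46 and 6.64 TPM under DMSO and 11.1, 8.87 and 9.33 TPM under auxin. In TPM the groups overlapped, because DMSO replicate 1 was above auxin replicate 2, while the normalized counts did not overlap and rose 1.53-fold (log2 fold change 0.62 ± 0.06, SE, adjusted p = 0.000212). With limma on log2(TPM + 1) the PTBP2 rise was not called (adjusted p = 0.245). PTBP3, the third paralog, had a log2 fold change of -0.07 and was not called with or without the block; it was called lower with GC-corrected offsets (-0.16, adjusted p = 0.0255).

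In each DMSO library PTBP1 held between 19.4 and 26.9 times the TPM of PTBP2, and in each auxin library between 4.52 and 6.36 times. Against PTBP3 the ratio went from 2.32 to 3.22 under DMSO to 0.81 to 1.16 under auxin. These ratios use the summed TPM of all annotated transcripts of a gene. Under auxin the 357-base PTBP1-213 and the 7-exon PTBP1-220 held 35.9% and 32.1% of PTBP1 TPM. The leading 14-exon forms PTBP1-201 and PTBP3-205 had means of 72.4 and 48.6 TPM under DMSO. Under auxin they had 6.75 and 39.5 TPM, so the near-equal totals did not extend to these forms.

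hnRNP L, which binds CA-rich RNA and acts as a repressor or an activator by position, fell less. HNRNPL had a log2 fold change of -0.35 (adjusted p = 0.0013), and its relative HNRNPLL, a regulator in lymphocytes, had 0.10 (adjusted p = 0.183), called higher with the replicate block (adjusted p = 0.018) and with upper-quartile factors (adjusted p = 0.00491).

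The PTBP1 message also changed in structure. A 34-base exon, the tenth of the 14 exons of PTBP1-201, is the exon through which PTBP1 protein is known to lower its own RNA: when it is skipped, the frame shifts and the transcript is a target of NMD. PTBP2 holds the counterpart exon, which PTBP1 protein is known to repress. They are shown together because these genes moved in opposite directions and each is known to be controlled through this exon, and capitals mark the bases at which they differ, 9 of 34 (GENCODE release 29, GRCh38, 5′ to 3′; chr19:807869-807902 and chr1:96806419-96806452, both plus strand, coding).

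PTBP1: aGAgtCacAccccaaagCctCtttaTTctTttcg

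PTBP2: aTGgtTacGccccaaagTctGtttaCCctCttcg

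Inclusion of the PTBP1 exon was 99.4%, 99.7% and 99.5% of the TPM of the transcripts that tell it apart in DMSO replicates 1 to 3, and 92.5%, 94.5% and 93.5% in the auxin replicates. All auxin values were lower, with a mean difference of -6.04 percentage points (adjusted p = 0.000165, limma over 13614 exons). Skipping transcripts, all annotated as NMD targets, stayed between 0.29 and 0.92 TPM under DMSO and 0.48 and 0.94 TPM under auxin. Including transcripts went from 150, 89.0 and 97.3 TPM to 11.5, 8.23 and 9.12 TPM, so the percentage changed through the loss of the including form. The same 34 bases also separate PTBP1-220 from PTBP1-213, and there inclusion was 24.2% to 53.0% under DMSO and 41.9% to 52.5% under auxin, not called (adjusted p = 0.79). In PTBP2, inclusion was 69.8%, 71% and 67.7% under DMSO and 78.9%, 82.2% and 72% under auxin. The groups did not overlap, but the difference was not called (adjusted p = 0.14, and 0.0724 with the replicate block). A 78-base PTBP1 exon that tells PTBP1-203 from PTBP1-201 had 34% inclusion under DMSO and 27.3% under auxin and was not called (adjusted p = 0.181). These percentages pool all transcripts that include or skip the exon. They are not the balance of those 2 alone, whose means under auxin were 0.02 TPM (PTBP1-203) and 6.75 TPM (PTBP1-201).

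The fall of PTBP1 was uneven over its annotated transcripts. PTBP1-201, the leading full-length form with 14 exons, went from 99.8, 57.7 and 59.8 TPM to 7.99, 5.92 and 6.34 TPM. PTBP1-203, with 15 exons, went from 38.1, 15.8 and 22.1 TPM to 0, 0.06 and 0 TPM. The posterior SD of its count reached 1.08e+04% of the count, against at most 4.32% for PTBP1-201 and 3.17% for PTBP1-220. How far PTBP1-203 fell is therefore uncertain. PTBP1-220, with 7 exons, measured 21.7, 16.3 and 16.5 TPM under DMSO and 20.2, 14 and 15 TPM under auxin, and these ranges overlapped. Its share of the gene's TPM was 11.3% under DMSO and 32.1% under auxin. PTBP1-213, a 357-base model whose end is marked as not found in the annotation, held 16.6% and 35.9%, so after auxin PTBP1-220 and PTBP1-213 together made up most of what was assigned to the gene. Reads shared between transcripts are split by estimation.

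Retained-intron transcripts of PTBP1 went from 3.77, 1.52 and 2.14 TPM under DMSO to 8.58, 3.79 and 3.99 TPM under auxin while the gene fell. Their share of the gene rose from 1.43% ± 0.19 to 10.1% ± 1.83 (SD, n = 3 each), and the log2 ratio to the other transcripts rose by 2.91 (adjusted p = 0.000148, limma). The NMD share was small in both groups, at 0.31% and 1.30%, and was also called higher (adjusted p = 0.00135). Its TPM hardly moved, with 0.29 to 0.92 under DMSO and 0.48 to 0.94 under auxin.

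The deepest fall of the set was that of RBM10 (chrX:47144869-47186813, plus strand). It measured 23.1, 15.9 and 17.4 TPM under DMSO and 4.12, 2.72 and 3.20 TPM under auxin, with the groups far apart. Counts fell 7.54-fold (log2 fold change -2.92 ± 0.07, SE, adjusted p = 1.55e-06). RBM10-201, with 24 exons, went from 10.5, 9.56 and 10.6 TPM to 1.17, 1.06 and 1.05 TPM, and RBM10-206, with 23 exons, from 11.8, 5.46 and 5.83 TPM to 1.20, 0.55 and 0.70 TPM. RBM10-205, a noncoding processed transcript of 5 exons inside the gene, went the other way, from 0.23, 0.24 and 0.26 TPM to 1.60, 0.99 and 1.25 TPM. It made up 1.33% of the gene's TPM under DMSO and 38.2% under auxin. NDUFB11, on the other strand, overlaps RBM10 by 636 bases and had a log2 fold change of 0.08; it was at 31.8 CPM under DMSO and 33.7 under auxin, where RBM10 was at 55.6 and 7.37.

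Its relative RBM5 rose slightly on counts (log2 fold change 0.27, adjusted p = 0.00351), but in TPM the groups overlapped, with 29.4, 17.0 and 16.9 under DMSO and 26.9, 17.3 and 20.4 under auxin. RBM6 overlaps RBM5 on the same strand over 11138 bases and also rose, by 0.46. RBM5 measured 0.97 to 1.27 times the TPM of RBM10 under DMSO and 6.35 to 6.53 times under auxin. RBM5 was not called after correction for GC content (adjusted p = 0.102) or with library-size scaling only (adjusted p = 0.112).

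The epithelial pair ESRP1 and ESRP2 fell together. ESRP2 (chr16:68229111-68238102, minus strand) measured 10.6, 6.98 and 6.84 TPM under DMSO and 3.71, 1.77 and 1.70 TPM under auxin, a fall of 4.64-fold on counts (log2 fold change -2.21 ± 0.20, SE, adjusted p = 0.000111). ESRP1, on chromosome 8, was the more abundant of the pair, with 88.8, 68.5 and 66.9 TPM under DMSO and 42.8, 38.2 and 35.3 TPM under auxin, a fall of 1.71-fold (adjusted p = 0.000344). In neither gene did the groups overlap. ESRP1 had 8.37 to 9.81 times the TPM of ESRP2 under DMSO and 11.5 to 21.6 times under auxin.

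What was left of ESRP2 was mostly annotated as retained intron. Retained-intron transcripts measured 3.27, 1.90 and 1.65 TPM under DMSO and 3.25, 1.57 and 1.56 TPM under auxin, so their level moved little. The other transcripts went from a mean of 5.87 TPM to 0.26 TPM. The retained-intron share therefore rose from 27.4% to 89.7%, with 24.1% as the lowest DMSO value and 87.6% as the lowest auxin value (adjusted p = 6.6e-05). A 133-base coding exon, the eighth of 15 in ESRP2-210, showed the same loss. Its inclusion was 79%, 78.7% and 82.2% under DMSO and 21.4%, 17.4% and 13.5% under auxin (adjusted p = 0.000153), a change of -62.5 points, the largest among the exons called in the set. The including transcripts ESRP2-202 and ESRP2-210 went from a mean of 5.60 TPM to 0.23 TPM, and the skipping side rests mainly on ESRP2-201, itself annotated as retained intron, at 1.15 and 0.99 TPM. Under auxin ESRP2-201 held 42.9% of the gene's TPM and ESRP2-206, another retained-intron transcript, held 22.3%. The posterior SD of the count reached 149% of the count for ESRP2-210 and 25.9% for ESRP2-201. How far the inclusion fell is therefore uncertain. The exon (chr16:68232371-68232503, minus strand) is shown because it separates these coding forms from ESRP2-201, and no capitals are used.

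ESRP2: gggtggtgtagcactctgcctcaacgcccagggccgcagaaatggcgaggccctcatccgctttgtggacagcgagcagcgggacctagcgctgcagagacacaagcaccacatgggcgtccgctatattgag

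**Figure D2:**
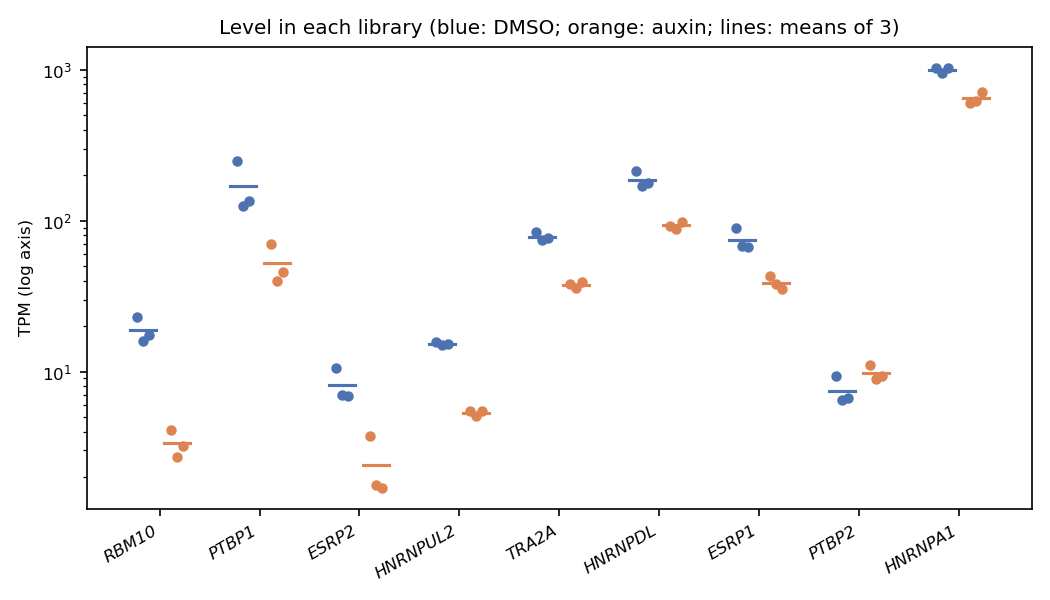
TPM of each library (log axis) for the 8 members called with an absolute log2 fold change of at least 0.58 and for HNRNPA1, the member with the highest level, with DMSO in blue, auxin in orange and lines at the means of 3. The groups are apart for every gene shown except PTBP2, where DMSO replicate 1 (9.28 TPM) lies among the auxin libraries.

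**Figure D3:**
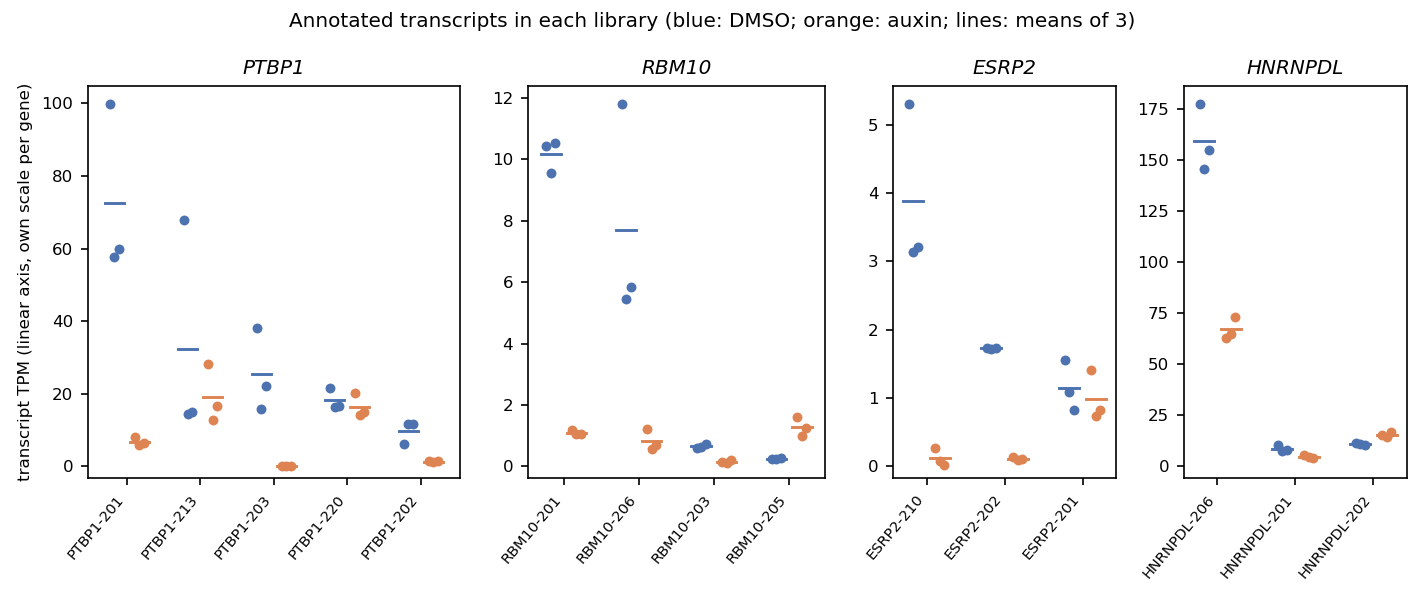
TPM of single annotated transcripts of PTBP1, RBM10, ESRP2 and HNRNPDL in each library (linear axis, own scale per gene; DMSO blue, auxin orange, lines at the means of 3). PTBP1-213, PTBP1-220 and ESRP2-201 overlap between the groups, RBM10-205 and HNRNPDL-202 are higher in every auxin library, and the others shown are lower in every auxin library.

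Among the A/B-type hnRNPs, which coat nascent transcripts and include the most abundant members of the set, 2 of 7 were lower, none was higher and 5 were not called; 0 were higher at an unadjusted p under 0.05 in edgeR and 0 with DESeq2. With the replicate block 4 were lower and 1, HNRNPA3, was higher. HNRNPA1 had the highest level of all 42 genes in both groups, at 1029, 949 and 1029 TPM under DMSO and 604, 625 and 712 TPM under auxin. Its groups did not overlap in TPM but did in CPM, and its fall of 1.39-fold was called narrowly (adjusted p = 0.0491, and 1.5e-06 with the block). The call was lost without any 1 of 5 libraries, with adjusted p-values of 0.0559 to 0.131, and was kept without DMSO replicate 1; it was also lost with upper-quartile factors (adjusted p = 0.0803). HNRNPA2B1 (-0.26, adjusted p = 0.101) and HNRNPD (-0.39, adjusted p = 0.0593) were called lower with the block (adjusted p = 0.000458 and 5.45e-06), and also with GC-corrected offsets (adjusted p = 0.00919 and 0.00943). HNRNPA0 (-0.07) and HNRNPAB (-0.02) were not called with or without the block, and HNRNPA3 had a log2 fold change of 0.08 (adjusted p = 0.0487 with the block).

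HNRNPDL and HNRNPD, relatives on chromosome 4 that bind AU-rich RNA, both shifted towards transcripts annotated as NMD targets. HNRNPDL (chr4:82422564-82430408, minus strand) measured 212, 170 and 179 TPM under DMSO and 92.5, 87.9 and 98.6 TPM under auxin, a fall of 1.75-fold on counts (adjusted p = 0.000267). Its NMD class went the other way over the same libraries, from 11.6, 11.1 and 10.8 TPM to 15.4, 14.3 and 16.8 TPM. The NMD share went from 5.45%, 6.53% and 6.02% to 16.6%, 16.3% and 17.0% (adjusted p = 0.00193). The shift rests on a 105-base exon that lies in the 3′ untranslated region of the NMD transcripts, as annotated, where a splice after the stop codon marks the RNA for decay. Inclusion of this exon rose from 6.20% ± 0.51 to 17.6% ± 0.59 (SD, n = 3 each, adjusted p = 0.000703).

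HNRNPD (chr4:82352498-82374503, minus strand) showed the same arrangement. Its NMD transcripts, mainly HNRNPD-211, measured 8.21, 7.5 and 5.61 TPM under DMSO and 16.3, 13.6 and 15.6 TPM under auxin. HNRNPD-211 is a 1089-base model whose start is marked as not found in the annotation. The rest of the gene went from 384 to 260 TPM. The NMD share rose from 1.85% to 5.60% (adjusted p = 0.0117), and inclusion of a 107-base exon, also in the 3′ untranslated region, rose from 3.68%, 4.67% and 3.22% to 11.9%, 12.0% and 12.6% (adjusted p = 0.00137). Both pairs of groups were apart, and neither call was lost in any of 12 alternative settings for either gene.

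HNRNPAB kept its level, at 195, 127 and 152 TPM under DMSO and 157, 125 and 140 TPM under auxin (adjusted p = 0.809), but changed its splicing. A 141-base coding exon, the seventh of 8 in HNRNPAB-202, was included at 89.8%, 85.7% and 85.2% under DMSO and at 80.0%, 70.6% and 67.0% under auxin (adjusted p = 0.0314). Skipping transcripts went from 19.7, 18.2 and 22.4 TPM to 31.1, 36.4 and 45.9 TPM. The groups were apart, but the call was lost without any 1 of 5 libraries (adjusted p of 0.0689 to 0.104) and was kept without auxin replicate 1. The exon (chr5:178210132-178210272, plus strand) is shown because its length is a multiple of 3, so both forms keep the frame; no capitals are used.

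HNRNPAB: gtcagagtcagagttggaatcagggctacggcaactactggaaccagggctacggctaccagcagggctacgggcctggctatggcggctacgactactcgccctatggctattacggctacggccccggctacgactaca

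Of the 6 other hnRNPs, 3 were higher and 1 was lower, where 25.4% of all genes were higher and 26.9% lower. HNRNPU, which binds chromatin-associated RNA and is also known as scaffold attachment factor A, went from 286, 232 and 269 TPM to 317, 308 and 359 TPM (log2 fold change 0.48, adjusted p = 0.00723). HNRNPR (0.39, adjusted p = 0.0133) and HNRNPUL1 (0.39, adjusted p = 0.00256) rose on counts by a similar amount. The HNRNPR call was lost without auxin replicate 2 or 3 (adjusted p = 0.0523 and 0.051). HNRNPM (0.16) and HNRNPC (0.21) were called higher with the block (adjusted p = 0.00331 and 0.000235).

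HNRNPUL2 (chr11:62712630-62727472, minus strand), a relative of HNRNPU, went against its family. It measured 15.7, 15.1 and 15.2 TPM under DMSO and 5.48, 5.05 and 5.44 TPM under auxin, with little spread within a group in TPM, while CPM ranged from 59.9 to 85.8 under DMSO and from 23 to 30.6 under auxin. Counts fell 2.76-fold (log2 fold change -1.46 ± 0.17, SE, adjusted p = 0.000351). The read-through gene HNRNPUL2-BSCL2 shares 14755 bases with it on the same strand, so reads cannot be fully separated; that gene had a log2 fold change of -0.79, and the largest posterior SD of a member's count, 1.11%, was at HNRNPUL2. Its retained-intron share was 4.91%, 3.45% and 1.90% under DMSO and 15.2%, 6.14% and 5.70% under auxin, not called (adjusted p = 0.0534, and 0.00364 with the block). HNRNPUL1 held 2.64 to 4.18 times the TPM of HNRNPUL2 under DMSO and 9.07 to 12.4 times under auxin.

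HNRNPUL1 was the only member whose NMD share was called lower. The share went from 3.03%, 3.11% and 3.61% to 1.28%, 1.68% and 1.41% (adjusted p = 0.0119), mostly through HNRNPUL1-208, which went from 1.23 to 0.62 TPM. The call was lost without DMSO replicate 2 (adjusted p = 0.051) or 3 (adjusted p = 0.0519). TGFB1 overlaps HNRNPUL1 by 6012 bases on the other strand and fell by 2.47 on the log2 scale; whether counting used the strand is not given in the sources used here, and the part of TGFB1 in the HNRNPUL1 values was not tested.

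None of the 4 hnRNP F/H genes, whose proteins bind G-rich RNA, was called by the edgeR test without the block or by DESeq2; 1, HNRNPH3, had an unadjusted p under 0.05 in edgeR. HNRNPF had a log2 fold change of 0.00 and HNRNPH1 of 0.07. HNRNPH3 (-0.31, adjusted p = 0.0539) and HNRNPH2 (0.38, adjusted p = 0.099) were called lower and higher with the block (adjusted p = 4.99e-05 and 3.52e-06). With GC-corrected offsets HNRNPH3 was also called lower (-0.38, adjusted p = 0.00299) and HNRNPH2 was not called (adjusted p = 0.0711).

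The KH-domain genes, named for the fold through which they bind single-stranded RNA, were mixed. HNRNPK (0.32, adjusted p = 0.0435) and PCBP2 (0.27, adjusted p = 0.0123), relatives that bind C-rich RNA, rose, and QKI, a regulator of myelin genes and of circular RNA formation, fell (-0.36, adjusted p = 0.00257). QKI did not overlap in TPM, with 14.8, 10.5 and 11.7 under DMSO and 9.47, 8.01 and 8.18 under auxin. The HNRNPK call was lost without any 1 of 5 libraries (adjusted p of 0.0532 to 0.136) and kept without auxin replicate 1. The PCBP2 call was lost without DMSO replicate 2 or 3 (adjusted p = 0.084 and 0.0789) with GC-corrected offsets (adjusted p = 0.164) and with library-size scaling only (adjusted p = 0.177). PCBP1 (0.07, adjusted p = 0.328) was not called with or without the block, but was called higher with GC-corrected offsets (0.27, adjusted p = 0.00386). KHDRBS1, known as SAM68, had -0.14 and was called lower with the block (adjusted p = 0.00238).

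Among the SR-related and RBM genes, 3 of 6 fell and 2 rose. TRA2A (chr7:23504780-23532041, minus strand), an activator of exons rich in GAA, measured 84.4, 74.5 and 76.3 TPM under DMSO and 38.3, 35.7 and 39.2 TPM under auxin, a fall of 1.90-fold (log2 fold change -0.93 ± 0.17, SE, adjusted p = 0.00284). Its paralog TRA2B had -0.18 (adjusted p = 0.244, 0.000789 with the block and 0.0194 with GC-corrected offsets). TRA2B held 2.00 to 2.26 times the TPM of TRA2A under DMSO and 3.40 to 3.56 times under auxin. A 79-base TRA2A exon of an NMD transcript was included at 0.46% to 2.58% under DMSO and 0.89% to 5.85% under auxin, with groups that overlapped, and was not called (adjusted p = 0.346). The 276-base TRA2B exon that holds an early stop codon, through which TRA2B protein is known to control its own level, was at 13.1%, 10.8% and 8.44% under DMSO and 17.5%, 9.88% and 9.61% under auxin (adjusted p = 0.785). RBM25, which binds exonic enhancers, fell (-0.35, adjusted p = 0.00223).

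RBM39, a relative of the 3′ splice site factor U2AF2, rose slightly (0.23, adjusted p = 0.0226), and the call was lost without any 1 of 4 libraries, DMSO replicate 1 or 2 or auxin replicate 2 or 3 (adjusted p of 0.078 to 0.0847), with DESeq2 (0.0609) and with no filter (0.0534). A 73-base exon with an early stop codon was included at 17.0%, 18.9% and 17.3% under DMSO and 24.4%, 23.7% and 23.9% under auxin (adjusted p = 0.0389). The NMD transcript that holds it, RBM39-216, went from a mean of 9.61 to 13.9 TPM. The groups were apart, yet the exon's call was lost without any 1 of the 6 libraries (adjusted p of 0.0852 to 0.124) and with replicates 2 and 3 only (0.0744). The exon, the third of 18 in RBM39-216 (chr20:35740525-35740597, minus strand), is shown through the stop codon that ends the annotated reading frame, in capitals, which leaves 1 more base.

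RBM39: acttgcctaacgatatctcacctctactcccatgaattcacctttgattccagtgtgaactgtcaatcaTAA

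TIA1 and TIAL1, paralogs that bind U-rich RNA downstream of weak 5′ splice sites, both fell. TIAL1 went from 117, 95.5 and 107 TPM to 71.9, 62.0 and 68.8 TPM (-0.46, adjusted p = 0.00291), and TIA1 from 36.8, 24.4 and 27.4 TPM to 24.4, 17.1 and 20.0 TPM (-0.39, adjusted p = 0.00103). The TIA1 groups met at 24.4 TPM, the value of DMSO replicate 2 and of auxin replicate 1. A 33-base coding exon of TIA1, the fifth of 13 in TIA1-201, which separates the a and b forms of the protein, was included at 79%, 78.8% and 79.5% under DMSO and 85.5%, 86.4% and 86.7% under auxin (adjusted p = 0.0247). This call was lost without any 1 of the 6 libraries (adjusted p of 0.0568 to 0.0932) and with replicates 2 and 3 only (0.0633). It is shown (chr2:70229059-70229091, minus strand) because the protein forms differ by it; no capitals are used.

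TIA1: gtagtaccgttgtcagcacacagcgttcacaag

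A 42-base exon of TIAL1 was skipped more often, with inclusion of 29.5%, 24.5% and 31.4% under DMSO and 10.1%, 14.5% and 9.52% under auxin (adjusted p = 0.0176). It is measured only by TIAL1-206, a processed transcript, against TIAL1-209, a retained-intron transcript, which are minor forms of the gene: the including one was at 1.56, 0.96 and 1.17 TPM under DMSO and 0.22, 0.22 and 0.14 TPM under auxin. The call was lost without DMSO replicate 3 (adjusted p = 0.0679) or auxin replicate 1 (0.0553) or 3 (0.0634), with replicates 2 and 3 only (0.0851) and with a pseudocount of 1 (0.367).

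Among the tissue regulators other than the ESRP pair, the muscleblind genes parted. MBNL1, which favours adult exon choices in muscle, fell (-0.31, adjusted p = 0.00271), from 116, 78.7 and 77.0 TPM to 76.0, 59.6 and 65.5 TPM. MBNL2 rose (0.48, adjusted p = 0.00176), from 78.3, 54.8 and 48.3 TPM to 91.9, 67.8 and 69.7 TPM, with groups that overlapped in TPM. MBNL1 had 1.44 to 1.60 times the TPM of MBNL2 in the DMSO libraries and MBNL2 had 1.06 to 1.21 times that of MBNL1 in the auxin libraries. MBNL3, at 0.63 to 1.59 TPM over the 6 libraries, was the lowest member and was called higher with the block (0.28, adjusted p = 0.173, and 0.00187 with it). CELF1, an antagonist of MBNL proteins on shared exons, rose (0.32, adjusted p = 0.00287, and 0.0673 with library-size scaling only), and RBFOX2 had 0.14 (adjusted p = 0.0806, and 0.00339 with the block).

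The 54-base MBNL1 exon that MBNL proteins are known to repress in their own message was included at 38.9%, 45.8% and 44.3% under DMSO and 45.1%, 51.4% and 49.4% under auxin. The groups overlapped, and it was not called (adjusted p = 0.281).

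**Figure D4:**
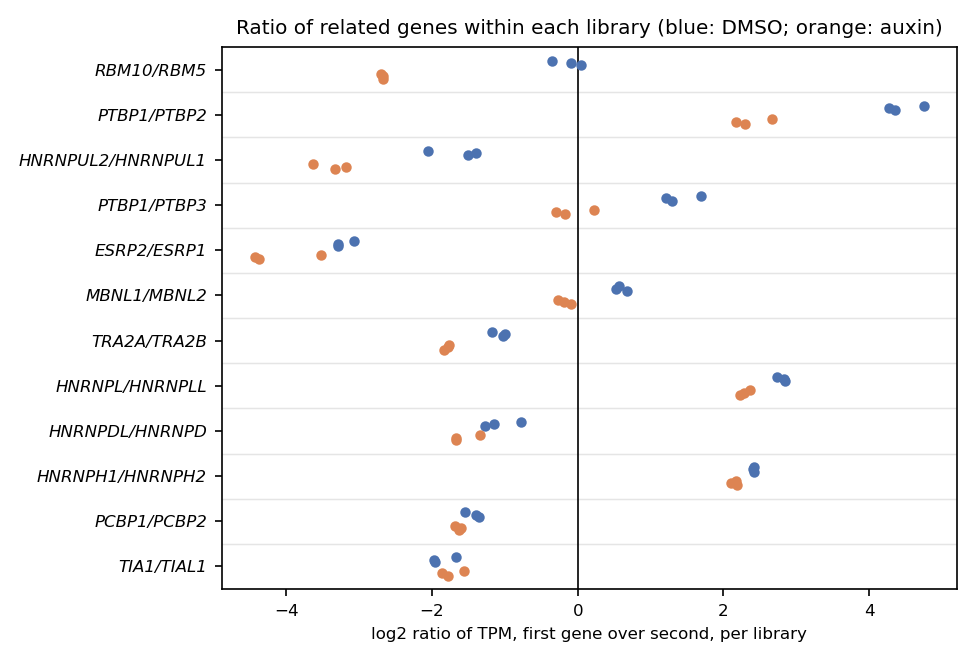
The log2 ratio of TPM between the genes of 12 related pairs, with 1 point per library (DMSO blue, auxin orange). The widest gap between the groups is that of RBM10 and RBM5, a change of -2.55, and the points of TIA1 and TIAL1 overlap.

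Ratios between relatives within a library do not depend on a scaling factor shared by all its genes. They are not corrected for GC content, which differs between PTBP1 (59.8%) and PTBP2 (38.9%) and between RBM10 (60.6%) and RBM5 (47.0%). With GC-corrected offsets the log2 fold change on counts went from -2.23 to -1.68 for PTBP1 and from 0.62 to 0.59 for PTBP2. For RBM10 it went from -2.92 to -2.31, and for RBM5 from 0.27 to 0.14. Of the 12 pairs compared, 11 had ratios that did not overlap between the groups, and TIA1 to TIAL1 did. No share over other gene pairs was computed, and 60.3% of single genes did not overlap in CPM, so the count describes these pairs and sets them apart from no others. In an exact permutation test of 3 against 3, 2-sided, no pair can go below p = 0.1, and after adjustment over the 12 pairs the smallest value was 0.109. The change of the log2 ratio was largest for RBM10 to RBM5, at -2.55, followed by PTBP1 to PTBP2, at -2.08, and HNRNPUL2 to HNRNPUL1, at -1.73. HNRNPL to HNRNPLL (-0.51), HNRNPDL to HNRNPD (-0.49), HNRNPH1 to HNRNPH2 (-0.26) and PCBP1 to PCBP2 (-0.21) moved less.

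Over the whole set, 26 members have an annotated NMD transcript and 24 could be tested; 3 (PTBP1, HNRNPDL and HNRNPD) had a higher share and 1 (HNRNPUL1) a lower one, beside 9.11% higher and 4.67% lower among all genes tested. With the block 5 were higher, beside 11.6% of all genes, HNRNPL (0.65% to 1.04%, adjusted p = 0.0387) and TRA2A (0.95% to 2.16%, adjusted p = 0.0284) being added. A retained-intron transcript is annotated for 29 members and 28 could be tested; 2 (ESRP2 and PTBP1) had a higher share and none a lower one in limma (also 0 at an unadjusted p under 0.05), beside 19.5% and 1.92% of all genes. With the block 8 were higher and 1, HNRNPU, was lower (5.06% to 3.20%, adjusted p = 0.00459), beside 25.8% and 6.56% of all genes, 32.4% in all. The 6 added as higher were HNRNPA1, HNRNPA2B1, HNRNPD, HNRNPC, HNRNPUL2 and TRA2A. HNRNPC, for example, went from 5.12% to 6.86% (adjusted p = 0.0237 with the block and 0.279 without).

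Of 164 annotated cassette exons in the set, 103 in 36 genes could be tested. 4 were called more included and 4 more skipped by at least 5 points, beside 3.37% and 6.83% of all exons. The included ones are those of HNRNPDL, HNRNPD, TIA1 and RBM39, and the skipped ones those of ESRP2, PTBP1, HNRNPAB and TIAL1. With the block 10 were called (12.8% of all exons, 4.61% more included and 8.18% more skipped), with a 45-base exon of HNRNPM (80.7% to 87.1% included, adjusted p = 0.0116) and a 154-base exon of MBNL1 (93.6% to 79.9%, adjusted p = 0.0323) added. The exons of an NMD transcript in HNRNPL (70 bases, 0.45% to 0.86% included under DMSO and 0.87% to 1.45% under auxin) and in HNRNPLL (83 bases, adjusted p = 0.739), and the 36-base exon that separates hnRNP A2 from B1 (9.12% and 10.8%, adjusted p = 0.244), were not called.

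**Figure D5:**
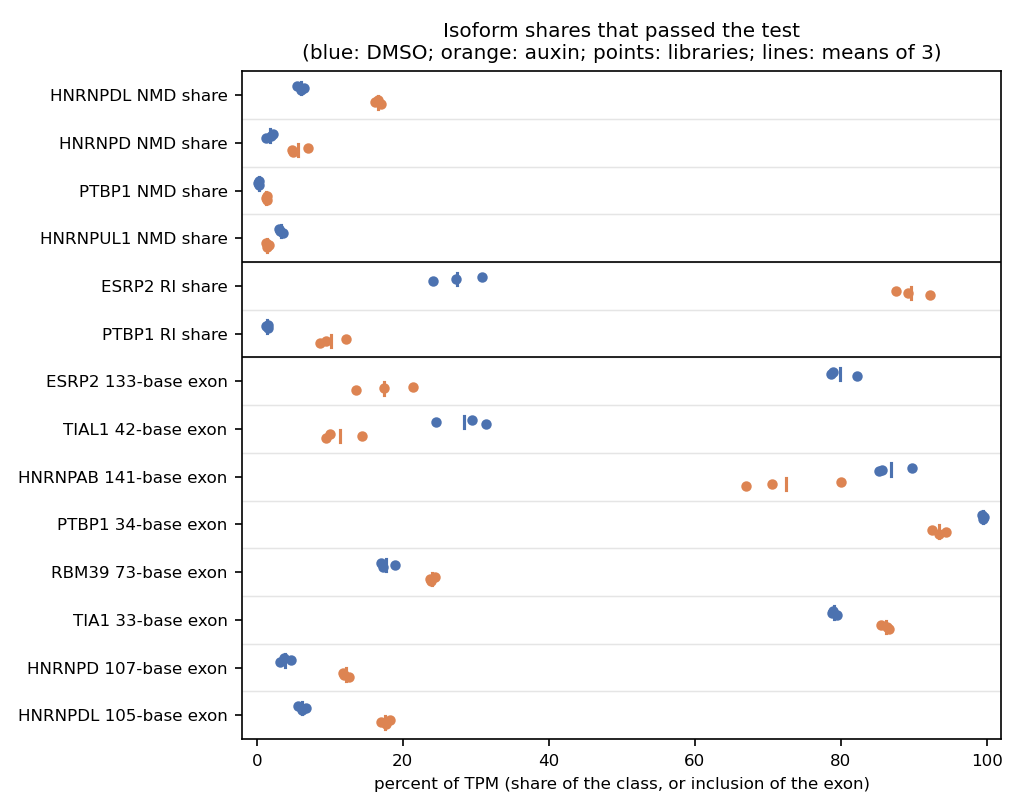
Percent of TPM in each library for every share or exon called in the set: NMD share (top), retained-intron share (RI, middle) and inclusion of cassette exons (bottom), with DMSO in blue, auxin in orange and lines at the means of 3. ESRP2 shows the widest gap, and groups are apart in all 14 rows.

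The 3 members with the highest GC content, RBM10 (60.6%), PTBP1 (59.8%) and ESRP2 (58.1%), were also the 3 with the largest falls. Next came PCBP1 and HNRNPUL1, both at 55.2%, with log2 fold changes of 0.07 and 0.39, and of 0.27 and 0.60 with offsets corrected for GC content. Across the 42 genes Spearman's rho between GC content and log2 fold change was -0.19, and across the 14145 protein-coding genes tested it was -0.36, both as descriptions over genes of the same libraries. With the GC-corrected offsets, an alternative chosen after seeing the data, the log2 fold changes were -2.31 for RBM10, -1.68 for PTBP1 and -1.81 for ESRP2, each still called (adjusted p = 2.41e-06, 1.11e-06 and 7.17e-05). Over all 17 alternatives they ranged from -3.0 to -2.18 for RBM10, -2.32 to -1.66 for PTBP1 and -2.50 to -1.46 for ESRP2.

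A second list of 38 splicing regulators outside the set held 33 that could be tested, of which 11 were higher and 8 lower, beside 25.4% and 26.9% of all genes; with the block 14 were higher and 10 lower, beside 35.5% and 34.4%. All annotated cassette exons of 12 known target genes were looked at, not only those that proteins of the set are known to regulate. 42 exons in 11 of these genes could be tested and 3 were called, against 10.2% of all exons. ARHGEF11, a target of the ESRP proteins, had a 120-base exon included at 84.3% ± 1.10 under DMSO and 68.5% ± 4.08 under auxin (SD, n = 3 each, adjusted p = 0.00729). A 1017-base exon of NASP rose from 28.5% to 42.8% (adjusted p = 0.0123) and a 126-base exon of CD44, another ESRP target gene, from 43.6% to 53.3% (adjusted p = 0.0387).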

How the data were processed

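RNA-seq was measured in 6 HCT116 libraries, 3 of them given auxin for 16 h and 3 DMSO, with groups taken from the sample titles. For each library the authors deposited a gene and a transcript table, which per the file headers hold expected counts (estimated, not whole), TPM and a posterior SD of the count. The submitters' processing notes name bcl2fastq 2.20, STAR, DESeq2 and GRCh38 without their roles; the counter, annotation and strand use are not given in the sources used here. The members and lists were chosen with earlier results of these data known.

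Of 59526 gene IDs, 58780 matched GENCODE release 29, as did 206761 of 207507 transcript IDs. The others took 2.55 to 11.1 CPM and stayed out of library sizes and tests. Expected counts were rounded, filtered with filterByExpr, scaled by TMM and tested with edgeR 4.0.16 in R 4.3.3. NMD, retained-intron and exon ratios used limma 3.58.1 on log2((class TPM + 0.1)/(other TPM + 0.1)), for genes of at least 1 TPM and classes of at least 0.1 TPM in a group. Exons needed 1 TPM in each group and inclusion between 1% and 99% in a group. All p-values were adjusted over every feature tested.

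Same-numbered libraries deviated together (r = 0.651, 0.265 and 0.276 for replicates 1, 2 and 3). The replicate number was used as a block in an alternative fit. DMSO replicate 3 with auxin replicate 2 had r = 0.312, and DMSO replicate 2 with auxin replicate 3 had 0.18. Only replicate 1 was thus set apart by its number, and the pairing of replicates 2 and 3 rests on the labels. Replicates of a group differed beyond sampling noise (chi-square per degree of freedom 38.2 to 577). On simulated counts for auxin against DMSO (19432 genes), the gene test recovered 89% of 2-fold and 47% of 1.5-fold changes, with 6.85% false among its calls. The ratio tests, on simulated ratios with a constant total, had 5.64% false for 3451 NMD classes, 4.83% for 5743 retained-intron classes and 8.63% for 13234 exons. With each library's own total these were 25.7% of 3557, 20.9% of 5826 and 30% of 13561. Totals did differ between libraries here, as for PTBP1 with means of 170 TPM under DMSO and 52.1 TPM under auxin. The NMD, retained-intron and exon calls given above carry this limit.

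Members named with values for every library were those called with an absolute log2 fold change of at least 0.58, the most abundant one, and those with a called share or exon; others were added after their values were seen. Alternatives were DESeq2 1.42.0, other scalings and filters, limma on TPM, other pseudocounts, posterior mean TPM, the block, and leaving out libraries. GC-corrected offsets, with and without the block, were chosen after seeing the data.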

Additional observations from a re-analysis of the deposited data

How the results depend on the processing

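The number of members called higher, 10, was 16 with upper-quartile factors, 17 with the replicate block and 0 with limma on log2(TPM + 1) or log2(TPM + 0.1) (2 and 1 at an unadjusted p under 0.05), in which the median of all genes shifted by -0.14 and -0.15 (upper quartile, 0.12); leaving out 1 library gave 7 to 12 higher and 13 to 17 lower. Members with a higher NMD share numbered 5 with the block in place of 3, and 3 without any 1 library, and those with a lower share 0 or 1. Members with a higher retained-intron share, 2, numbered 4 with a pseudocount of 1, 4 with replicates 2 and 3 only, 8 with the block, and 2 to 4 without 1 library, of which 4 came without DMSO replicate 1; 1 was lower with the block and 0 without 1 library. Exons called more included, 4, were 2 to 3 without 1 library; those more skipped, also 4, were 2 at a mean of at least 5 TPM, 2 with replicates 2 and 3 only, and 2 to 3 without 1 library. The causes were not tested. Of 38 named values with a call, 17 were lost in no alternative and 0 were reversed. Blocked values that changed a call stand in the text; the block changed 12 gene calls. Every member had 894 counts or more in every library, but shares of transcripts under 1 TPM depend on the pseudocount and on how shared reads were split. Whether the greater depth of replicate 1 affected the shares was not tested.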
